A study of Homo sapiens with 6 samples.

Results

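The genes described are 10 that sense foreign nucleic acid or carry that signal to an interferon gene: the RNA sensors DDX58 (RIG-I), IFIH1 (MDA5), DHX58 (LGP2) and TLR3, the adaptors MAVS and TMEM173 (STING), the kinase TBK1, the transcription factors IRF3 and IRF7, and IFNB1, which encodes interferon beta. They were chosen by symbol, and all 10 were found among the 58735 genes of the table. HT1080 cells, a line established from a human fibrosarcoma, gave 3 libraries as wild type (WT) and 3 after CRISPR-Cas9 knockout (KO) of GPR56, an adhesion G protein-coupled receptor encoded by ADGRG1. Every sample carries the name of the solvent DMSO in its description, without dose or time. The cells of both genotypes were grown in DMEM with fetal bovine serum. Neither the targeted site, nor the number of knockout clones, nor whether libraries came from separate cultures is given, so p-values reflect the spread among these libraries alone, and that spread may be technical. If the KO libraries come from 1 clone, clone and genotype cannot be told apart.

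RIG-I and MDA5 are cytosolic helicases that recognise viral RNA and recruit MAVS on the outer mitochondrial membrane. LGP2 is the third member of that helicase family; it lacks the signalling domain of the others and modulates them. TLR3 binds double-stranded RNA in endosomes, and STING relays the signal of cGAS, a sensor of cytosolic DNA. These routes meet at TBK1, which phosphorylates IRF3 and IRF7, and these factors then switch on interferon beta. Secreted interferon acts back through its receptor, and DDX58, IFIH1, DHX58, IRF7 and TLR3 are themselves known as interferon-inducible genes. All levels are FPKM, read numbers scaled to gene length and sequencing depth. The length counts all annotated exonic bases of a gene, not those of the transcript expressed. Levels of different genes can therefore be compared only approximately.

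The 6 libraries held 16410352 to 17276269 recovered reads. ADGRG1 had 875 to 989 reads in the WT libraries and 371 to 398 in the KO libraries, so its mRNA was lower but still present (KO to WT ratio 0.399). Of 10 mesenchymal markers, 8 lay above the expression filter of a mean of 1 FPKM, and their list summed to 663 to 709 FPKM in WT and 746 to 851 FPKM in KO. Of the 8, limma called 4 higher and 1 lower and made no call for 3, beside 43.4% of all tested genes called. SPARC rose from a mean of 183 to 278 FPKM, while LOX fell from 9.59 to 4.35 FPKM. The 8 epithelial markers summed to 0.293 to 0.426 FPKM in WT and 0.901 to 0.934 FPKM in KO, with CDH1, KRT14 and GRHL2 at 0 reads. On recovered reads, limma-voom could test 1 of the 8 and called it higher in KO (log2 fold change 1.45). The 10 blood and endothelial markers summed to 0.345 to 0.425 FPKM in WT and 1.55 to 1.88 FPKM in KO; the leukocyte marker PTPRC and the dendritic cell marker CLEC4C had 0 reads, while the endothelial markers PECAM1 and CDH5 had 127 and 0 reads over the WT libraries and 486 and 51 over the KO libraries. Of the 4 blood and endothelial markers that limma-voom could test, 3 were called higher in KO and 0 lower, beside 17.2% higher over all genes. In bulk RNA, fewer cells of a type and less RNA per cell cannot be told apart, and the part of these markers in the results below was not tested.

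The start regions of the genes were searched for short motifs known to be bound by interferon-activated factors, interferon regulatory factors or NF-kB proteins. RefSeq promoter windows (GRCh38.p14, 250 bases before to 50 after the transcript start) were matched for 6 of the 10 genes. IFNB1, DDX58 and IFIH1, which were lower in KO, and MAVS, which was higher, are printed here 5′ to 3′ on the strand of the gene. The windows of TBK1, which was also lower, and of TLR3 were searched but are not printed. Capitals mark matches on either strand to 3 motifs. The response element core is GAAA, any 2 bases and GAAA again, the centre of the interferon-stimulated response element. AANNGAAA, contained in it, is the shorter core bound by interferon regulatory factors. The NF-kB type motif is GGGAA, any 3 bases and CC. The windows lie at chr9:21077893-21078192 (minus strand, IFNB1), chr9:32526147-32526446 (minus strand, DDX58), chr2:162318635-162318934 (minus strand, IFIH1) and chr20:3846584-3846883 (plus strand, MAVS).
IFNB1: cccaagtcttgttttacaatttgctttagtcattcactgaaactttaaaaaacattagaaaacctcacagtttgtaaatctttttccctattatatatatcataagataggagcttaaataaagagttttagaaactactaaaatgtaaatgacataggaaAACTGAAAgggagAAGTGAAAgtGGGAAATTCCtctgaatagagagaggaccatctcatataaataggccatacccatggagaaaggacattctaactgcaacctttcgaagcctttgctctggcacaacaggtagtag
DDX58: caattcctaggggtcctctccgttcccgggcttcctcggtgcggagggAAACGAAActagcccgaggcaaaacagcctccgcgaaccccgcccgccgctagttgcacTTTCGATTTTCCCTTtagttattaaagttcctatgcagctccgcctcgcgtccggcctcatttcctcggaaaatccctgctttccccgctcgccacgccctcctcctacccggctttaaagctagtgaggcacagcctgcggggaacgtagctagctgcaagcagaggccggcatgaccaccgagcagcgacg
IFIH1: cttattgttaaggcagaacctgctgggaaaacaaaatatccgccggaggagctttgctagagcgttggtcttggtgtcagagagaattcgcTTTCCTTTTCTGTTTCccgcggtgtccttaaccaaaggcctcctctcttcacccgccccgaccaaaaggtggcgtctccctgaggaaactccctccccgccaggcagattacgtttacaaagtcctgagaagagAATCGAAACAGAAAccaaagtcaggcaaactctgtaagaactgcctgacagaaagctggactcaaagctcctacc
MAVS: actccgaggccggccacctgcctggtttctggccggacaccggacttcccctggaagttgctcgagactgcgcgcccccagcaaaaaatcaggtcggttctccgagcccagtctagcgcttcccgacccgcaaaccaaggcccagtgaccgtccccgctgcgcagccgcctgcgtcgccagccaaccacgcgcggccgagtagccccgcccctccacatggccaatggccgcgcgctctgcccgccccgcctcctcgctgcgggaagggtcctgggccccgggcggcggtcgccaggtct

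The IFNB1 window held 2 matches to AANNGAAA, at 89 to 82 and 76 to 69 bases before the start, followed by GGGAAATTCC at 66 to 57 bases before it. This short stretch is the textbook enhancer on which IRF and NF-kB proteins assemble. IFIH1 had 3 matches to the response element core, among them GAAACAGAAA at 21 to 12 bases before the start. TLR3 had 1 such match on the opposite strand, read as TTTCACTTTC on the strand of the gene, lying across the start itself. DDX58 had none of these but 3 matches to AANNGAAA. MAVS, which was higher in KO, and TBK1, which was lower, had no match to any of the 3 motifs. Thus 2 of the 6 windows held the response element core, 4 held AANNGAAA and 1 held the NF-kB type motif, against 3.57%, 22.8% and 6.90% of all 35116 promoter windows. A match describes letters and is not a measured binding site.

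**Figure D1:**
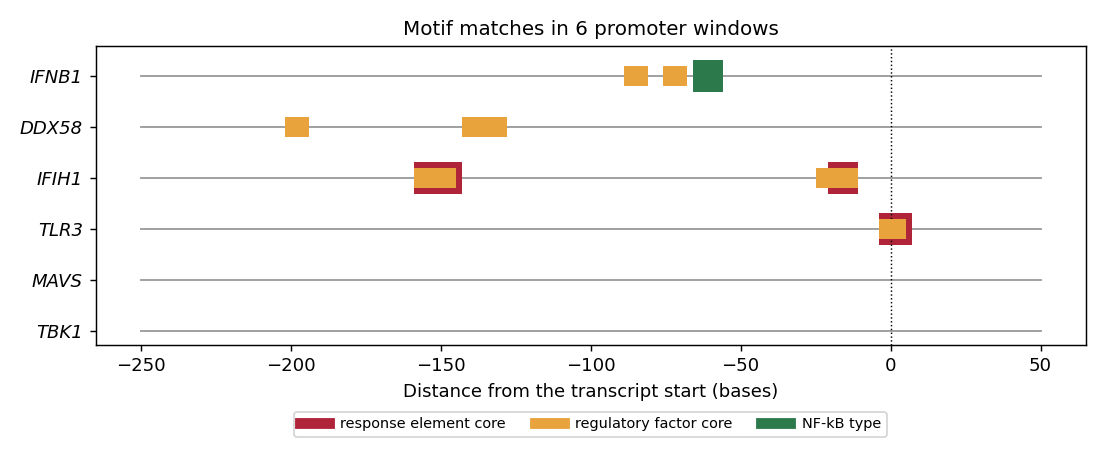
Positions of motif matches in 6 promoter windows of 300 bases, by distance from the transcript start in bases; red marks the response element core, orange AANNGAAA and green the NF-kB type motif, on either strand. IFNB1, DDX58, IFIH1 and TLR3 hold matches, MAVS and TBK1 hold none.

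Both signalling RNA helicases were lower in KO, at less than the lowest WT library in every KO library. DDX58, which encodes RIG-I (ENSG00000107201, minus strand of chromosome 9, 32455705 to 32526324 on GRCh38), stood at 11.6, 14.0 and 10.9 FPKM in the WT libraries and at 5.14, 4.94 and 5.27 FPKM in the KO libraries. The KO libraries lay close together and the WT libraries spread more widely, with no overlap. Averages were 12.2 ± 1.61 in WT and 5.12 ± 0.166 FPKM in KO (mean ± SD, n = 3 per genotype, as for all values below), 2.38-fold lower, a log2 fold change of -1.10 on log2(FPKM + 1) (SE 0.09, limma adjusted p = 0.000192). IFIH1, which encodes MDA5 (ENSG00000115267, minus strand of chromosome 2, 162267079 to 162318703), stood at 4.15, 3.96 and 3.43 FPKM in WT and at 1.43, 1.47 and 1.31 FPKM in KO. Its 291 to 359 reads per WT library compared with 111 to 129 per KO library, again without overlap. The mean fell from 3.85 ± 0.378 to 1.40 ± 0.083 FPKM, 2.75-fold (log2 fold change -1.01, SE 0.08, limma adjusted p = 0.000192).

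The third helicase of the family did not pass the test. DHX58 (ENSG00000108771, minus strand of chromosome 17, 42101404 to 42112733) was at 2.83, 2.06 and 2.94 FPKM in WT and at 2.21, 1.88 and 1.82 FPKM in KO. KO 1 lay above WT 2, so the genotypes overlapped. Its means were 2.61 ± 0.478 and 1.97 ± 0.214 FPKM (log2 fold change -0.28, SE 0.12, limma adjusted p = 0.0959). The value moved to -0.42 (adjusted p = 0.00954) once the trend with GC content and length, described further on, was removed, and to -0.39 (adjusted p = 0.0196) without WT 2. It was -0.21 (adjusted p = 0.225) without WT 3 and -0.23 (adjusted p = 0.249) without WT 1.

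TLR3, the endosomal sensor (ENSG00000164342, plus strand of chromosome 4, 186069152 to 186088069), lay under the filter. It was at 0.949, 0.893 and 0.715 FPKM in WT and at 0.676, 0.510 and 0.573 FPKM in KO, from 80 to 108 and 59 to 78 reads per library. Every KO library lay under every WT library, by a narrow margin between WT 3 and KO 1. On recovered reads, limma-voom gave a log2 fold change of -0.54 (SE 0.19, adjusted p = 0.0413), while limma on log2(FPKM + 1) with no filter gave an adjusted p of 0.224.

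**Figure D2:**
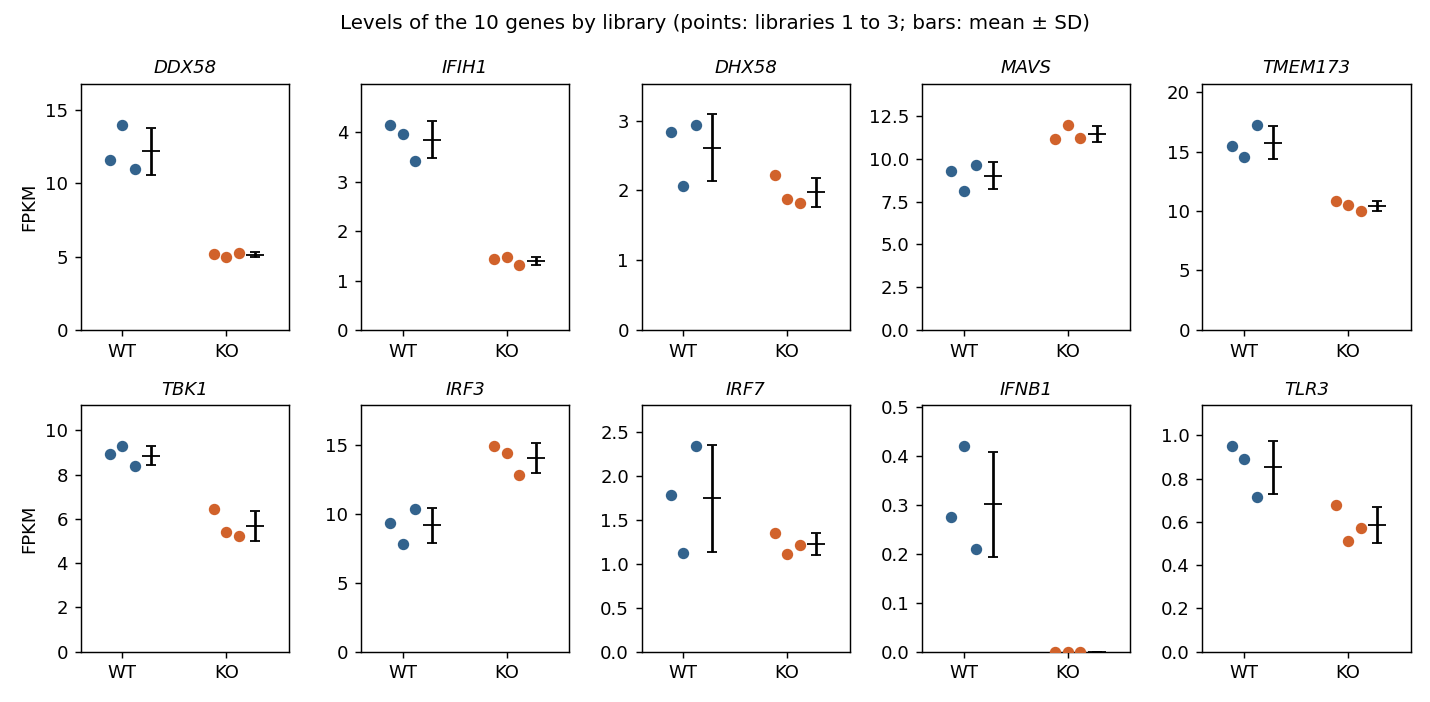
FPKM of each of the 10 genes in the 3 WT (blue) and 3 KO (orange) libraries, each panel with its own axis from 0; black bars give the mean ± SD. DDX58, IFIH1, TMEM173, TBK1, IFNB1 and TLR3 are lower in every KO library, MAVS and IRF3 higher, and DHX58 and IRF7 overlap.

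The 2 adaptors moved in opposite directions. MAVS (ENSG00000088888, plus strand of chromosome 20, 3846799 to 3876123) was at 9.27, 8.15 and 9.64 FPKM in WT and at 11.1, 11.99 and 11.2 FPKM in KO, from 1596 to 1887 and 2192 to 2428 reads per library. All KO libraries lay above all WT libraries. The mean rose from 9.02 ± 0.778 to 11.4 ± 0.476 FPKM, a KO to WT ratio of 1.27 (log2 fold change 0.32, SE 0.07, limma adjusted p = 0.0127). Without KO 2 this call was lost (0.28, limma adjusted p = 0.0544). TMEM173, which encodes STING (ENSG00000184584, minus strand of chromosome 5, 139475534 to 139482935), was at 15.5, 14.5 and 17.3 FPKM in WT and at 10.8, 10.5 and 10.0 FPKM in KO, without overlap. It fell from 15.8 ± 1.39 to 10.4 ± 0.415 FPKM, 1.51-fold (log2 fold change -0.55, SE 0.08, limma adjusted p = 0.00138).

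TBK1, the kinase on which the routes converge (ENSG00000183735, plus strand of chromosome 12, 64451880 to 64502108), was lower in KO. It stood at 8.92, 9.27 and 8.38 FPKM in WT and at 6.46, 5.4 and 5.21 FPKM in KO, and the genotypes did not overlap. The mean fell from 8.86 ± 0.448 to 5.69 ± 0.676 FPKM, 1.56-fold (log2 fold change -0.56, SE 0.09, limma adjusted p = 0.00211). With the GC and length trend removed its change was smaller, -0.34 (adjusted p = 0.0160).

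Of the 2 transcription factors, IRF3 rose and IRF7 did not pass. IRF3, present in most cells before any infection (ENSG00000126456, minus strand of chromosome 19, 49659569 to 49665875), was at 9.32, 7.77 and 10.3 FPKM in WT and at 14.9, 14.4 and 12.8 FPKM in KO. The lowest KO library lay above the highest WT library. The mean rose from 9.15 ± 1.30 to 14.0 ± 1.08 FPKM, a ratio of 1.53 (log2 fold change 0.57, SE 0.11, limma adjusted p = 0.00477). Of its 3794 exonic bases 734, or 19.3%, overlap BCL2L12 on the opposite strand, a gene with a mean of 16.8 FPKM, and without a stated strand setting reads from that stretch cannot be assigned with certainty. IRF7, the factor that amplifies the interferon response (ENSG00000185507, minus strand of chromosome 11, 612553 to 615999), was at 1.78, 1.12 and 2.33 FPKM in WT and at 1.35, 1.11 and 1.21 FPKM in KO. WT 2 lay within the KO range, and the WT libraries differed more among themselves (coefficient of variation 34.8%) than the KO libraries did (10.1%). Its log2 fold change was -0.28 (SE 0.16, limma adjusted p = 0.210), and it was -0.45 (adjusted p = 0.0262) without WT 2, -0.13 (adjusted p = 0.506) without WT 3 and -0.48 (adjusted p = 0.0163) with the GC and length trend removed.

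IFNB1 (ENSG00000171855, minus strand of chromosome 9, 21077105 to 21077963) was found in each WT library and in no KO library. It had 4, 6 and 3 reads in the WT libraries, or 0.275, 0.420 and 0.210 FPKM, and 0 reads in each KO library. The 13 WT reads have an exact Poisson interval (95%) of 6.92 to 22.2, which covers counting error only. Against a limit of 3 reads over the 3 KO libraries, 0.0685 FPKM, IFNB1 was at least 4.40-fold lower in KO than its pooled WT level of 0.301 FPKM. That ratio takes the WT level without its counting error, and the exact interval for 0 reads reaches 3.69 reads. It lay far under the filter and was not tested in the main analysis; limma-voom on recovered reads gave an adjusted p of 0.00733, and limma with no filter one of 0.0140.

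Among the 8 genes above the filter, limma called 4 lower and 2 higher and made no call for DHX58 and IRF7. Over all 12000 tested genes limma called 43.4%, 21.0% higher and 22.4% lower, so a call by itself was common in these libraries. The library ranges of the genotypes were apart for 6 of the 8 tested genes, 4 lower and 2 higher, and for 54.7% of all tested genes, 28.3% lower and 26.4% higher. The median log2 fold change of the 8 was -0.41, against -0.01 over all tested genes. On recovered reads, where all 10 could be tested, 6 were lower and 2 higher, beside 17.1% lower and 17.2% higher over 20463 genes.

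**Figure D3:**
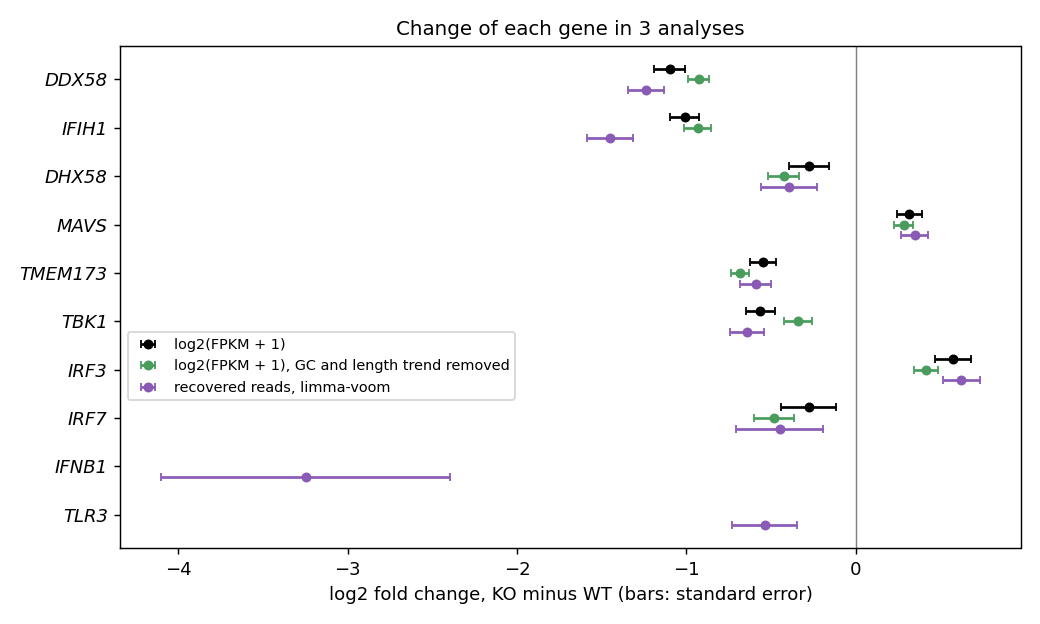
Log2 fold change (KO minus WT) with its standard error for each gene in limma on log2(FPKM + 1) (black), the same after removal of the GC and length trend (green), and limma-voom on recovered reads (purple). IFNB1 and TLR3, under the filter, have the last value only; the sign of every gene is the same in the analyses shown.

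The order of the levels, as FPKM, changed between the genotypes. Genes are called apart where their library ranges did not overlap, which leaves out the error from the gene lengths used. In WT, TMEM173 was highest at 15.8 FPKM, then DDX58 at 12.2 FPKM, both apart from their neighbours. IRF3, MAVS and TBK1 followed at 9.15, 9.02 and 8.86 FPKM with overlapping ranges, then IFIH1, DHX58, IRF7, TLR3 and IFNB1, of which DHX58 and IRF7 overlapped. In KO, IRF3 led at 14.0 FPKM, ahead of MAVS and TMEM173, each apart from the next. TBK1 at 5.69 FPKM and DDX58 at 5.12 FPKM came next and overlapped, and IFIH1 at 1.40 FPKM lay under DHX58 at 1.97 FPKM.

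Ratios of FPKM within a library restate these values without reference to other genes. They are no separate result and were not corrected for the trend with GC content described further on. For MAVS over DDX58 the WT libraries gave 0.801, 0.583 and 0.881, and the KO libraries 2.16, 2.43 and 2.13. TMEM173 over MAVS was 1.67 to 1.79 in WT and 0.874 to 0.974 in KO, so this ratio was lower in KO. Which of these adaptor mRNAs was the more abundant depends on the lengths used, 3850 bases for TMEM173 and 11771 for MAVS, and was not settled. IRF3 over IRF7 was 4.43 to 6.94 in WT and 10.5 to 13.0 in KO. DDX58 over IFIH1, by contrast, was 2.78 to 3.53 in WT and 3.37 to 4.03 in KO, with overlapping ranges.

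GC content moved with genotype across the whole table and differs among these genes. For 11992 tested genes, which are not independent replicates, each library's departure from a gene's mean was set against GC content. The Spearman coefficients were -0.40, -0.62 and -0.01 for WT 1 to 3, and for KO 1 to 3 they were 0.46, 0.44 and 0.23. The part of this trend in the genotype differences was estimated only by the correction below. The transcripts of DDX58, IFIH1, TBK1, IFNB1 and TLR3 have 37.6% to 43.3% GC, and those of DHX58, MAVS, TMEM173, IRF3 and IRF7 have 52.1% to 66.8%. All 5 of the GC-rich genes were at their lowest WT level in WT 2, the library with the strongest trend, and 0 of the other 5 were. After removal of the GC and length trend, 6 of the 8 tested genes were lower and 2 higher, beside 21.4% lower and 21.0% higher, 42.4% in all, over the tested genes. Of the 5207 genes called before this removal, 3946 kept their call and direction after it, where 5086 were called. DDX58 was then at -0.93 and IFIH1 at -0.93, TMEM173 at -0.68, MAVS at 0.28 and IRF3 at 0.41, with adjusted p of 6.51e-05 to 0.00766.

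**Figure D4:**
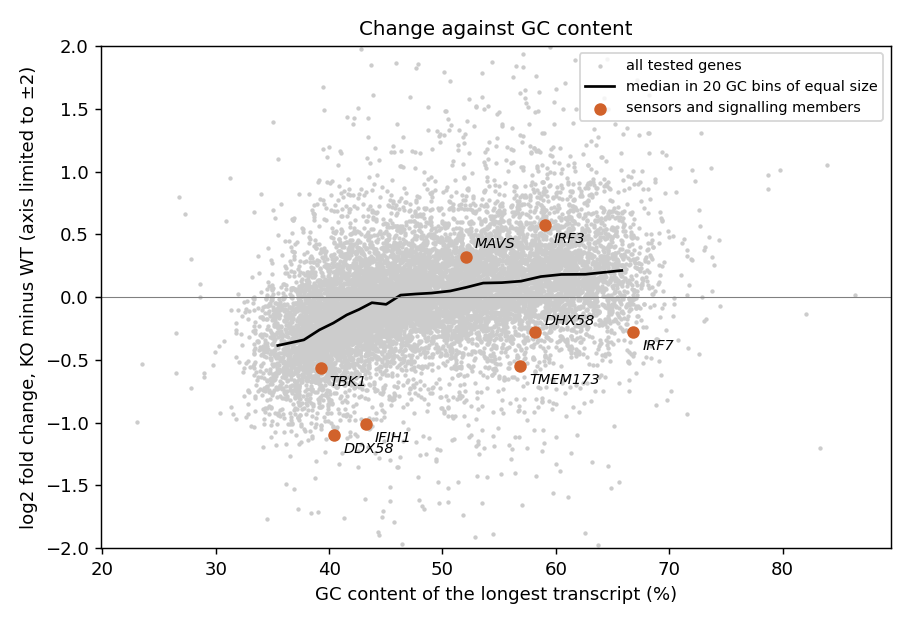
Log2 fold change (KO minus WT) against GC content of the longest transcript in percent; grey points are all tested genes, the black line the median in 20 GC bins of equal size, orange points the 8 tested genes described here. The line rises from -0.39 to 0.21; DDX58, IFIH1, TBK1, TMEM173, DHX58 and IRF7 lie under it and MAVS and IRF3 above it.

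Other sensors of nucleic acid were mostly lower in KO. Of a list of 25, 19 were tested, and 13 fell, 1 rose and 5 did not pass (73.7% called, beside 43.4% of all tested genes), with a median log2 fold change of -0.42. After removal of the GC and length trend 10 were lower and 1 higher, beside 42.4% of all genes called, and the median was -0.25. The member that rose was ZCCHC3, a cofactor of cGAS, a call that was lost with the trend removed. The member called higher with the trend removed was the helicase DHX15, which changed sign, from -0.17 (limma adjusted p = 0.108) to 0.19 (adjusted p = 0.0193). CGAS, the DNA sensor upstream of STING, fell from 1.93 ± 0.303 to 0.421 ± 0.099 FPKM (log2 fold change -1.04, limma adjusted p = 0.000571). DDX60, a helicase described as a RIG-I cofactor, fell from 5.92 ± 0.860 to 1.10 ± 0.088 FPKM (adjusted p = 5.57e-05). OAS2, which makes the messenger that activates RNase L, fell from 2.24 ± 0.082 to 0.564 ± 0.023 FPKM, whereas its relative OAS3 was at 7.20 ± 0.731 and 7.23 ± 0.299 FPKM (adjusted p = 0.945). ZNFX1, a helicase-like sensor, fell from 16.6 ± 0.401 to 10.9 ± 0.571 FPKM. CGAS and OAS2 lay under 1 FPKM in KO and passed the filter only through their WT level. TLR7, TLR8 and TLR9, sensors of immune cells, had 4, 1 and 1 reads over the WT libraries and 1, 0 and 0 over the KO libraries.

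The relay between sensor and transcription factor held changes in both directions. Of 25 tested genes 7 rose, 8 fell and 10 did not pass (60% called, beside 43.4% of all tested genes; median 0.00). After removal of the GC and length trend 4 were higher and 6 lower, a share near the 42.4% called over all genes. ZC3HAV1, whose product ZAP has a form known to stimulate RIG-I, fell from 15.6 ± 0.536 to 7.79 ± 0.426 FPKM (limma adjusted p = 8.19e-05). TRIM25, a ubiquitin ligase of the RIG-I route, fell from 21.2 ± 0.824 to 14.9 ± 0.828 FPKM (adjusted p = 0.00123). DDX3X, a helicase that also binds the kinase complex, fell from 28.5 ± 2.29 to 19.4 ± 1.05 FPKM. UNC93B1, the chaperone that brings endosomal Toll-like receptors to their compartment, rose from 7.26 ± 0.453 to 12.1 ± 0.495 FPKM (adjusted p = 0.000350). TICAM1, the adaptor of TLR3, was at 15.9 ± 1.67 and 16.8 ± 1.71 FPKM (adjusted p = 0.598) and was picked out for its role with its values known.

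Negative regulators and nucleases that remove the cell's own nucleic acid also divided. Of the 23 above the filter, 9 rose, 7 fell and the other 7 were not called (69.6% called, beside 43.4% of all tested genes; median 0.03). With the GC and length trend removed, 9 were higher and 5 lower, beside 21.0% higher and 21.4% lower over all genes. DNASE2, the lysosomal DNase, rose from 0.685 ± 0.193 to 2.57 ± 0.083 FPKM (limma adjusted p = 0.000321), and RNASEH2B, a subunit of RNase H2, from 0.592 ± 0.095 to 1.66 ± 0.079 FPKM (adjusted p = 0.000933). Both lay under 1 FPKM in WT and passed the filter only through their KO level. TNFAIP3, which encodes A20, fell from 6.63 ± 0.497 to 2.09 ± 0.319 FPKM, and USP18, an interferon-inducible brake on the interferon receptor, from 3.17 ± 0.582 to 1.38 ± 0.095 FPKM. The DNase gene TREX1 is listed at 0 in every library; all of its 1515 exonic bases lie within ATRIP on the same strand.

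Genes of the interferon receptors and of JAK-STAT signalling held 2 of 13 tested that rose and 3 that fell (median -0.10), 38.5% against 43.4% of all tested genes. With the GC and length trend removed 2 rose and 2 fell, beside 42.4% of all genes called. STAT3 rose from 13.9 ± 0.454 to 21.2 ± 0.527 FPKM (limma adjusted p = 0.000330) and IFNGR2, a chain of the interferon gamma receptor, from 14.6 ± 0.552 to 20.1 ± 1.70 FPKM. JAK2 fell from 2.45 ± 0.207 to 1.35 ± 0.162 FPKM and PTPN11 from 45.3 ± 1.21 to 36.4 ± 1.87 FPKM, a call that was lost with the trend removed. STAT2, a signal transducer of the interferon receptors, averaged 5.21 ± 0.305 FPKM over the WT libraries against 5.07 ± 0.499 FPKM over the KO libraries (limma adjusted p = 0.764) and was picked out for its role with its values known. IRF9 and the receptor chain IFNAR2 had 34 and 65 reads over the WT libraries, and 48.4% and 44.2% of their exonic bases lie within other annotated genes on the same strand, so reads from those stretches cannot be assigned with certainty.

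Interferon genes besides IFNB1 were near or at 0. Of a list of 20, 16 had 0 reads in all 6 libraries, among them 11 of the 13 interferon alpha genes. IFNL1, the type III interferon made by the same IRF and NF-kB factors (ENSG00000182393, plus strand of chromosome 19, 39296325 to 39298673), had 20, 9 and 16 reads in WT and 0 in each KO library, at least 15.2-fold lower against a limit of 3 reads over the group (limma-voom adjusted p = 0.000302). IFNE had 10, 16 and 7 reads in WT and 3, 1 and 9 in KO, so the genotypes overlapped. IFNA4 had 2 reads, both in WT 2, and IFNA1 1 read, in KO 1.

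Interferon-stimulated genes were lower for the most part. Of a list of 35, 29 were tested, and 21 fell, 2 rose and 6 did not pass (79.3% called, beside 43.4% of all tested genes, 22.4% lower). With the GC and length trend removed 21 were lower and 2 higher, beside 21.4% lower and 21.0% higher over all genes. The median log2 fold change was -0.82, and it was -1.78 over the 34 members tested by limma-voom on recovered reads and -0.37 over the 17 members with a mean of at least 5 FPKM. IFI44, CCL5, IFIT3 and OASL had the smallest adjusted p, with log2 fold changes of -4.43, -3.79, -2.87 and -2.57. In KO, IFI44 and CCL5 averaged 0.934 and 0.402 FPKM, under 1 FPKM, so they passed the filter only through their WT level. The members that rose were UBE2L6, from 18.8 ± 1.2 to 25.1 ± 0.887 FPKM, and LGALS3BP, from 95.5 ± 4.72 to 118.5 ± 0.819 FPKM; the call of LGALS3BP was lost with the trend removed, where TRIM22 was called higher instead. Of the 29 list members with a RefSeq promoter window, 21 held the response element core (72.4%) and 2 held the NF-kB type motif (6.90%), beside 3.57% and 6.90% of all windows. Of the tested list members with the response element core 13 of 17 were lower, and of those without it 4 of 7. Outside the list, 28.8% of 226 tested genes with that core were lower and 23.3% of 8528 without it; these differences were not tested.

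**Figure D5:**
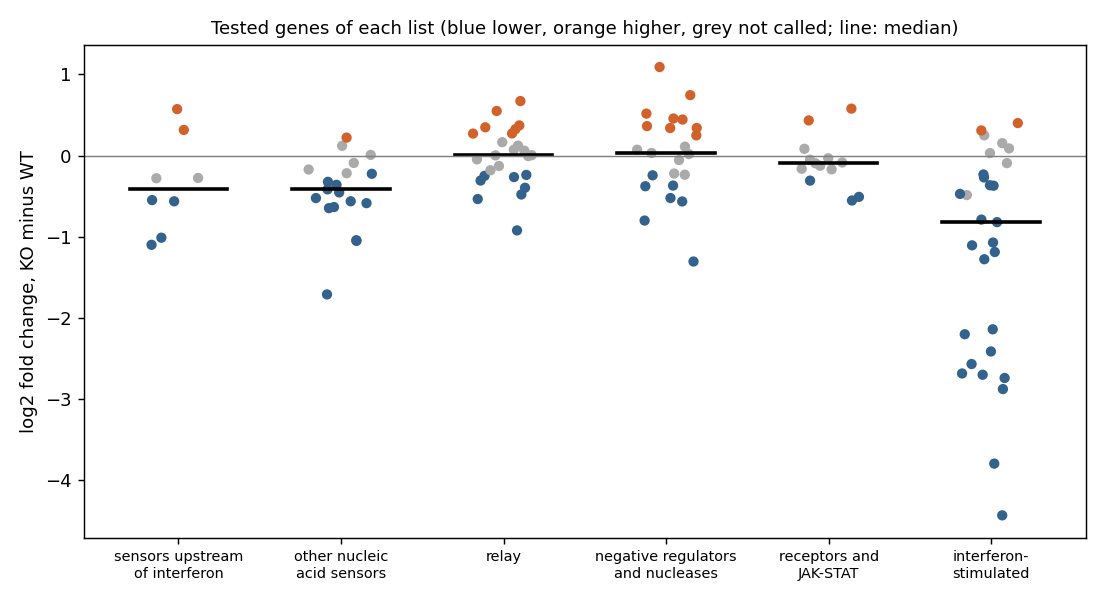
Log2 fold change (KO minus WT) of each tested gene in 6 lists; blue genes were called lower, orange higher and grey not called, and black lines are list medians. Medians are -0.41 for the sensors and signalling genes described here, -0.42 for other sensors, near 0 for the relay and negative regulators, -0.10 for receptors and JAK-STAT and -0.82 for interferon-stimulated genes.

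Genes whose pattern lay nearest to that of DDX58, the tested gene with the smallest p among the 10, were sought by Euclidean distance between log2(FPKM + 1) deviations over the 6 libraries, among 10256 other protein-coding genes. They were NDN (distance 0.097), PDCD1LG2 (0.111), PTPN22 (0.126), CGAS (0.153) and BRIP1 (0.154). Their log2 fold changes were -1.10, -1.11, -1.01, -1.04 and -1.01. A value close to that of DDX58 follows from the choice by nearness in the same libraries and is no separate result. The distance is a description of these 6 libraries, which share the genotype difference.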

How the data were processed

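RNA was sequenced from 3 WT and 3 KO libraries of HT1080 cells, grouped by title. Per the labels' protocols, a SMARTER kit was used for library preparation. The authors deposited FPKM per gene, with aligner, counter and strandedness not given in the sources used here. GRCm38 and mm10, both mouse builds, stand in the submitters' processing notes, yet IDs, starts and ends of 58735 of 58735 genes equal human GENCODE release 29 on GRCh38. Gene lengths in bases come from the authors' file.

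FPKM times length stepped in whole reads (100.0% of values above 0 within 0.02 of a whole read; 16410352 to 17276269 reads per library), which gave the read numbers. The test was limma (3.58.1, R 4.3.3; trend, two-sided, Benjamini-Hochberg, threshold 0.05) on log2(FPKM + 1) for 12000 genes with a mean of at least 1 FPKM, genotype the only term. It was also run on simulated reads without a GC trend, unlike these libraries, so that run does not check the calls made here. Fold changes on this scale understate changes of low genes. Because the filter takes the mean over both genotypes, a gene under 1 FPKM in 1 genotype passes only if the other is high. Among such genes the filter favours large differences, and they are counted in the shares called. Limma-voom with trimmed-mean scaling on recovered reads (at least 10 per gene over the libraries; 7018 genes called) and the GC and length correction (lowess, span 0.3, longest transcript) were alternatives.

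Named genes were the 10 members, ADGRG1, up to 4 called genes per list by smallest p, ligands with reads, and the 5 nearest to DDX58. OAS3, TLR7, TLR8, TLR9, ZCCHC3, DHX15, TICAM1, TREX1, STAT2, IRF9, IFNAR2, UBE2L6, LGALS3BP, TRIM22 and the cell type markers were named after their values were seen. Members and lists were chosen with earlier results of these data known. Protein comparison and the count model on reads were not run. Some results are not reported here.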

Additional observations from a re-analysis of the deposited data

How the results depend on the processing

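DDX58, IFIH1, TMEM173, TBK1 and IRF3 kept direction and call in all alternatives in which they were tested, and none of the 10 genes changed sign in a recomputed fit. Among values recomputed for single genes 102 stayed on their side of the threshold, 9 gained a call (DHX58, IRF7, IFNB1 and TLR3) and 2 lost it (MAVS). The number of called genes among the 8 tested was 5 to 8 when 1 library was left out. MAVS missed the threshold with the replicate block (0.32, adjusted p = 0.0525) and without KO 2 (0.28, 0.0544). DHX58 and IRF7 passed only without WT 2 (-0.39 and -0.45) and with the GC and length correction, alone or with the replicate block (-0.42 and -0.48). The replicate block gave 3866 called genes in all, against 5207. Deviations of libraries with the same number correlated at -0.07, -0.18 and -0.35, so pairing by number was not seen. With 3 libraries per genotype, each set against its genotype mean, these values cannot exclude such pairing.

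A filter at 5 FPKM on the mean left fewer genes to test, and 3203 of 7053 were called. Called there were 14 of 17 interferon-stimulated genes and 8 of 14 negative regulators and nucleases. So were 3 of 10 receptor and JAK-STAT genes and 9 of 16 relay genes. The main analysis called 23 of 29, 16 of 23, 5 of 13 and 15 of 25 in these lists, and 5207 of 12000 in all. The replicate block with the correction called 4021 of 11992 genes in all. It called 9 of 19 other sensors, against 14 in the main analysis, 3 of 13 receptor and JAK-STAT genes and 8 of 25 relay genes. Of the ligands, untested in the main analysis, 1 was called with no filter and 1 by limma-voom, which was chosen after seeing the data. Leaving out 1 library gave 3789 to 5372 called genes, 10 to 16 relay genes, 12 to 15 other sensors, 13 to 17 negative regulators and nucleases, 4 to 5 receptor and JAK-STAT genes, 21 to 23 interferon-stimulated genes and 0 ligands. Apart from the tests named, the causes were not tested. In a gene of 1 kb, 1 read was worth 0.0581 to 0.0602 FPKM, so IFNB1, IFNE and the other interferon genes rest on few reads.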
